A study of Mus with 30 samples.

Results

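The transcripts of Ace and Agtr1a, the enzyme that makes the hormone angiotensin II (Ang II) and the main receptor through which it acts, were followed in the hearts of 30 mice. They were chosen by identifier, as ENSMUST00000001963 for Ace and ENSMUST00000066412 for Agtr1a, and are 2 of the 36503 transcripts listed in all tables together. Both were listed in every mouse. All mice were C57BL/6 with no other genotype named, and the labels assign 5 of them to each of 6 groups. Every group went through a 28-day infusion, which delivered saline in the Control group and Ang II at 500 ng/kg/min in the other 5. The Control and Ang II groups had saline as treatment. Of the 4 remaining groups, 3 had ethoxysanguinarine, baicalin or gastrodin, each at 5 mg/kg/day, and 1 had valsartan, at 10.4 mg/kg/day. The labels give neither age nor sex, and the study's methods describe young adult males, with the left part of each heart taken for RNA. The study asked how gastrodin protects the heart, and compared the cardiac transcripts of the gastrodin and Ang II groups. Here the question was whether the infused hormone, or the blocker of its receptor, goes with another level of the hormone's own enzyme and receptor. Every Ang II group therefore received the product of Ace from outside, and no group received valsartan without Ang II.

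In the renin-angiotensin system, renin cuts angiotensinogen to Ang I and angiotensin-converting enzyme, the product of Ace, cuts Ang I to Ang II. The enzyme sits on the surface of endothelial cells and also degrades bradykinin, a dilator of vessels. Ang II constricts vessels, promotes the release of aldosterone and drives growth of the heart through the type 1 receptor, which mice encode in a pair of closely similar genes, Agtr1a and Agtr1b. Valsartan blocks this receptor, whereas the common ACE inhibitors act on the enzyme. RefSeq (GRCm38.p6, the same assembly as mm10) places Ace on chromosome 11 from 105967948 to 105989964 with 3 transcripts, and Agtr1a on chromosome 13 from 30336356 to 30382867 with 4 transcripts. Agtr1b lies on chromosome 3. The sources used here do not say how the authors divided reads between isoforms, or between Agtr1a and Agtr1b, so the value of either transcript may miss or include reads of a related one.

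The values were read as FPKM, a level per length of transcript and per library, since they are not whole numbers and do not add up to a fixed total, although no source names the unit. Their sum per mouse lay between 562189 and 654188, and 16808 to 20446 transcripts reached 1 FPKM. Sequencing depth is unknown. The correlation between 2 libraries ranged from 0.783 to 0.844 over all pairs of mice, and no library was left out.

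Both transcripts were well detected in the heart. Ace ranged from 3.70 to 18.3 FPKM over the 30 mice, with a median of 7.21 FPKM. Agtr1a ranged from 1.54 to 15.8 FPKM, with a median of 11.3 FPKM. Within a library, Ace lay at a median percentile of 84.5 among the 28298 transcripts listed in all mice, and Agtr1a at a median percentile of 89.7. The receptor transcript was above the enzyme transcript in 25 of 30 mice, by a median ratio of 1.59 in FPKM. Since FPKM is per length, this compares the levels of 2 transcripts and not of proteins.

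In the Control group, Ace was at 6.37, 5.38, 3.70, 5.58 and 7.33 FPKM in mice 5114, 5155, 5116, 5193 and 5153, with a mean of 5.67 ± 1.34 FPKM (SD, n = 5). In the Ang II group it was at 5.29, 9.73, 5.55, 8.87 and 9.24 FPKM in mice 5143, 5128, 5130, 5161 and 5156, with a mean of 7.73 ± 2.14 FPKM (SD, n = 5). The Ang II mice thus divided into 3 above every Control mouse and 2 inside the Control range, and the groups overlapped.

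**Figure D1:**
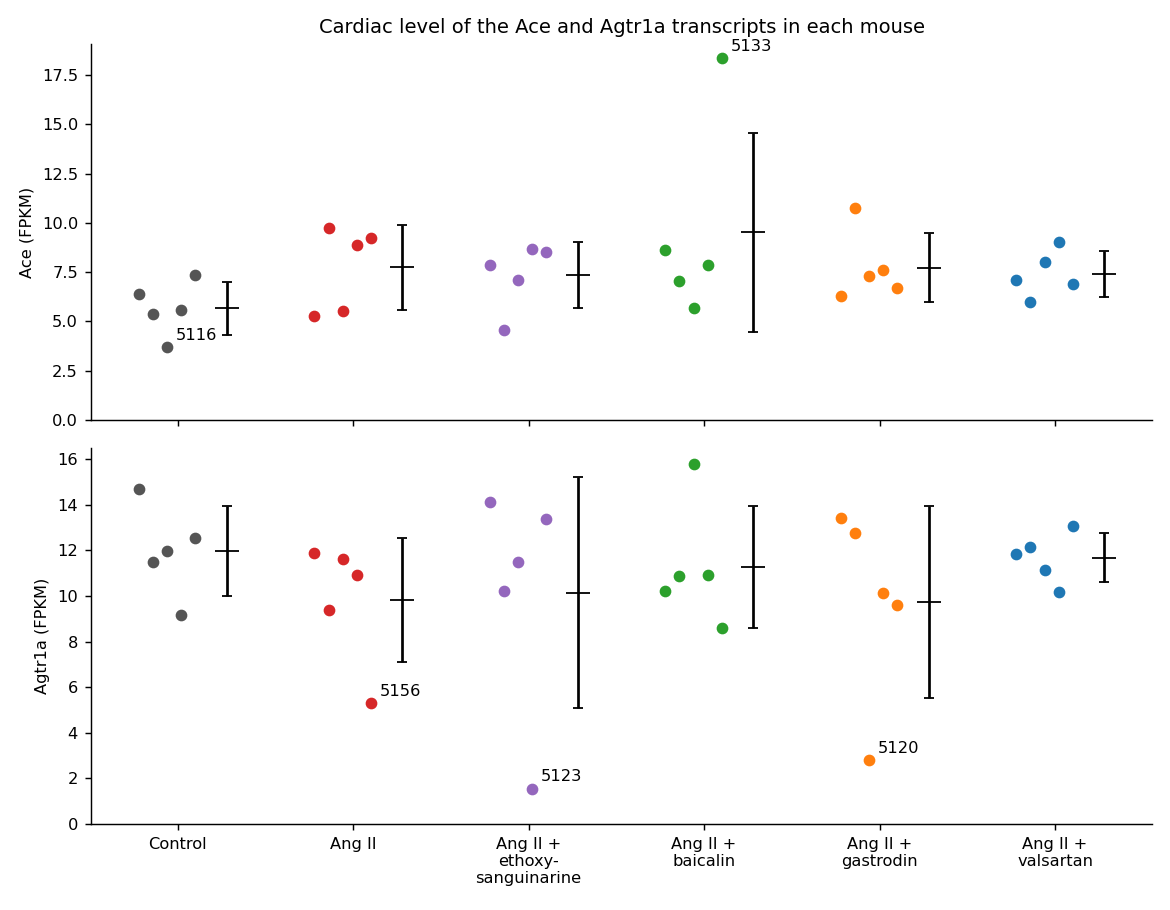
Level of Ace (upper panel) and Agtr1a (lower panel) in FPKM on linear axes that start at 0, by group. Points are single mice, and the line to their right marks the mean ± SD of 5 mice. Mouse 5133 stands alone in Ace at 18.3 FPKM, and mice 5156, 5120 and 5123 are the lowest in Agtr1a at 5.30, 2.80 and 1.54 FPKM. The groups overlap in both transcripts.

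Ace was 0.38 higher in the Ang II group than in the Control group on the log2(FPKM + 1) scale (standard error 0.21, 95% interval -0.09 to 0.84), which is a 1.30-fold difference on that scale. The difference did not pass the test (exact permutation p = 0.111, two-sided, and adjusted p = 0.631 over 18354 transcripts, limma). Of all transcripts tested in this comparison, 2.26% had groups that did not overlap, 9.13% had an unadjusted p under 0.05 and 0.0381% an adjusted p under 0.05. A doubling lay outside the interval. With each mouse left out in turn, the difference ranged from 0.26 to 0.48. It was smallest without Control mouse 5116, the lowest of the 30 mice in Ace. It was largest without Ang II mouse 5143 (unadjusted p = 0.0447, adjusted p = 0.527, limma).

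Agtr1a went the other way in its mean. It was at 14.7, 11.5, 12.0, 9.17 and 12.5 FPKM in the Control mice and at 11.9, 9.36, 11.6, 10.9 and 5.30 FPKM in the Ang II mice, in the same order of mice as for Ace. The means were 12.0 ± 1.99 FPKM in the Control group and 9.82 ± 2.71 FPKM in the Ang II group (SD, n = 5). All 5 Ang II mice were below the Control median of 12.0 FPKM, but only mouse 5156 was below the lowest Control mouse. The difference of -0.29 on the log2(FPKM + 1) scale (standard error 0.21, 95% interval -0.76 to 0.17) did not pass the test (exact permutation p = 0.198, adjusted p = 0.718 with limma). Without mouse 5156 it was -0.11. That library also had the lowest mean correlation with its own group, 0.799 against 0.812 to 0.814 for its mates, and whether this bears on its Agtr1a value was not tested.

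Valsartan, which blocks the receptor, was compared with the Ang II group for both transcripts. Under valsartan, Ace was at 7.11, 5.98, 8.00, 9.04 and 6.88 FPKM in mice 5131, 5148, 5121, 5124 and 5194, with a mean of 7.40 ± 1.17 FPKM (SD, n = 5). These values lie inside the range of the Ang II group. The difference from the Ang II group was -0.03 on the log2(FPKM + 1) scale (standard error 0.19, 95% interval -0.44 to 0.38, adjusted p = 0.986, limma). Its sign was not stable, since it was 0.05 without Ang II mouse 5128.

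Agtr1a under valsartan was at 11.9, 12.1, 11.1, 10.2 and 13.1 FPKM in the same order of mice, with a mean of 11.7 ± 1.08 FPKM (SD, n = 5). This was the narrowest group of all, with a coefficient of variation of 9.29% against 16.6% to 49.7% in the other 5. The mean was 0.27 above that of the Ang II group on the log2(FPKM + 1) scale (standard error 0.19, 95% interval -0.16 to 0.70), which did not pass the test (exact permutation p = 0.183, adjusted p = 0.875 with limma). In this comparison 1.33% of transcripts had groups that did not overlap, 6.23% had an unadjusted p under 0.05 and 0.022% an adjusted p under 0.05. Without Ang II mouse 5156 the difference was 0.09. The Ang II mice stand in this comparison and in that with the Control group, so the low value of mouse 5156 enters both.

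Set directly against the Control group, the valsartan hearts had an Agtr1a level that differed by -0.02 on the log2(FPKM + 1) scale (standard error 0.12, 95% interval -0.30 to 0.25, adjusted p = 0.994, limma). This was the narrowest interval of the 14 differences computed for the 2 transcripts. It came from a fit of these 2 groups only, and with all 6 groups in 1 fit the standard error was 0.36. Ace was 0.35 higher than in the Control group (standard error 0.17, 95% interval -0.02 to 0.72, exact permutation p = 0.0556, adjusted p = 0.890 with limma), with all 5 valsartan mice above the Control median. Without Control mouse 5116 this was 0.23. In this comparison 5.62% of transcripts had an unadjusted p under 0.05 and 0.0108% an adjusted p under 0.05.

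**Figure D2:**
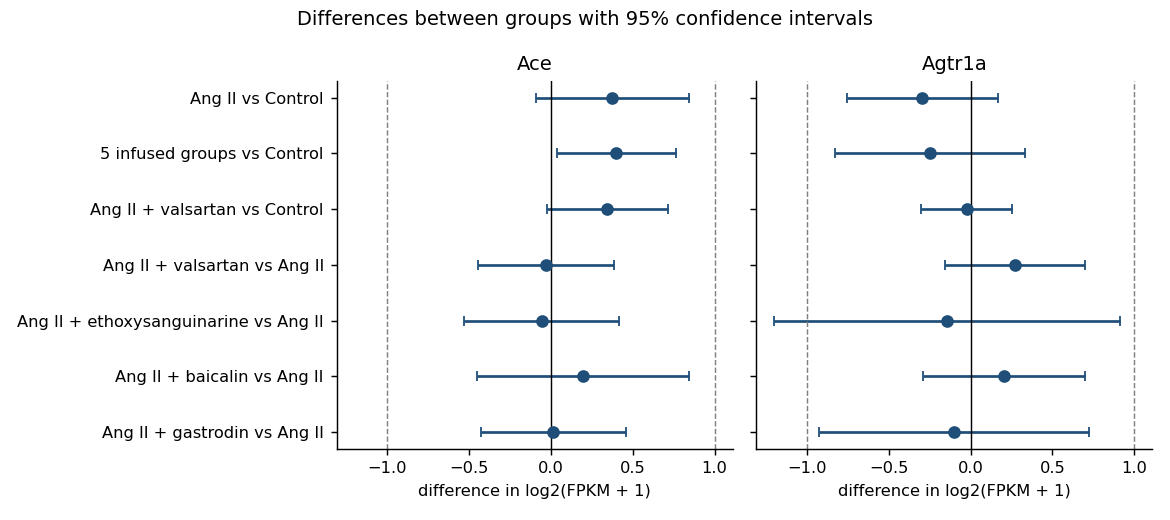
Difference between groups in log2(FPKM + 1) for Ace (left) and Agtr1a (right), with the 95% confidence interval from limma. The dashed lines mark a change of 1 in either direction, which is 2-fold on this scale. Only the interval of Ace in the 5 infused groups against Control, 0.04 to 0.76, leaves out 0, and only that of Agtr1a under ethoxysanguinarine, -1.20 to 0.91, reaches past a 2-fold change.

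The 3 plant compounds were given at the same dose. Ace was at 7.87, 4.59, 7.08, 8.65 and 8.53 FPKM under ethoxysanguinarine in mice 5141, 5164, 5118, 5123 and 5125, with a mean of 7.34 ± 1.67 FPKM. Under gastrodin it was at 6.28, 10.8, 7.31, 7.58 and 6.71 FPKM in mice 5135, 5158, 5120, 5163 and 5112, with a mean of 7.73 ± 1.77 FPKM (SD, n = 5 in both). Neither mean was more than 0.06 from the Ang II group on the log2(FPKM + 1) scale: the difference was -0.06 for ethoxysanguinarine (95% interval -0.53 to 0.42, adjusted p = 0.972, limma) and 0.01 for gastrodin (95% interval -0.43 to 0.46, adjusted p = 0.993, limma).

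Under baicalin, Ace was at 8.64, 7.03, 5.70, 7.87 and 18.3 FPKM in mice 5138, 5154, 5113, 5140 and 5133. The mean of 9.51 ± 5.05 FPKM (SD, n = 5) was the highest of the 6 groups, and it rested on mouse 5133. Without this mouse the other 4 had a mean of 7.31 ± 1.26 FPKM (SD). The difference from the Ang II group was 0.20 on the log2(FPKM + 1) scale (standard error 0.29, 95% interval -0.45 to 0.84, adjusted p = 0.874, limma), and -0.05 without mouse 5133. In that heart Ace was 2.12 times its nearest mate, a gap of 1.00 on the log2 scale. A gap of this size above all mates was seen for 1.36% of 24844 transcripts in mouse 5133, and for 1.11% to 2.58% in the other mice of the group, so the library as a whole did not stand out in this measure. Its Agtr1a, at 8.62 FPKM, was the lowest of the baicalin group.

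Agtr1a was lowest of all in 2 hearts of the drug groups. Under ethoxysanguinarine it was at 14.1, 10.2, 11.5 and 13.4 FPKM in mice 5141, 5164, 5118 and 5125, and at 1.54 FPKM in mouse 5123. Under gastrodin it was at 13.4, 12.8, 10.1 and 9.59 FPKM in mice 5135, 5158, 5163 and 5112, and at 2.80 FPKM in mouse 5120. The nearest mate was 6.63 times higher than mouse 5123 and 3.43 times higher than mouse 5120. Each value was far below all 5 Control mice, while the other 4 mice of each group lay within the Control range of 9.17 to 14.7 FPKM.

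These 2 libraries were otherwise ordinary. Their mean correlation with their own group was 0.828 in mouse 5123 and 0.832 in mouse 5120, inside the ranges of their mates. Ace was at 8.65 and 7.31 FPKM in them, within the range of their mates or, for mouse 5123, just above it. A gap below all mates as large as that of Agtr1a was seen for 49 of 24844 transcripts in mouse 5123 (0.197%) and for 147 in mouse 5120 (0.592%). In their mates the corresponding shares were 0.177% to 0.310% and 0.551% to 0.716%. Drops of this size in 1 heart of 5 were thus rare for a transcript, and no more frequent in these hearts than in the mates.

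With these hearts, the intervals for Agtr1a under both drugs were the widest of all 14 differences computed. The mean was 10.1 ± 5.05 FPKM under ethoxysanguinarine and 9.74 ± 4.22 FPKM under gastrodin (SD, n = 5 in both). On the log2(FPKM + 1) scale the difference from the Ang II group was -0.14 for ethoxysanguinarine (standard error 0.47, 95% interval -1.20 to 0.91, adjusted p = 0.965, limma), although its mean in FPKM was above the 9.82 FPKM of that group. The direction for ethoxysanguinarine thus differed between the scales, because the low value of mouse 5123 weighs more on the log scale. For gastrodin it was -0.10 (standard error 0.37, 95% interval -0.92 to 0.72, adjusted p = 0.971, limma). Both changed sign when the low heart was left out, to 0.33 without mouse 5123 and to 0.24 without mouse 5120, and neither passed the test then. Under baicalin Agtr1a was at 10.2, 10.9, 15.8, 10.9 and 8.62 FPKM, with a mean of 11.3 ± 2.68 FPKM (SD, n = 5). The difference from the Ang II group was 0.20 (standard error 0.22, 95% interval -0.29 to 0.70, adjusted p = 0.822, limma). Without Ang II mouse 5156 it was 0.02. In the comparisons of ethoxysanguinarine, baicalin and gastrodin with Ang II, 8.29%, 9.75% and 6.21% of all transcripts tested had an unadjusted p under 0.05, and 0.132%, 0.0165% and 0.022% an adjusted p under 0.05.

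The 5 infused groups were then set together against the Control group, which asks about the infusion across all treatments. Ace was at 7.94 ± 2.63 FPKM in 25 infused mice (SD), against 5.67 ± 1.34 FPKM in 5 Control mice. Of the infused mice, 22 were above the Control median of 5.58 FPKM, 13 were above the highest Control mouse and 0 were below the lowest. The mean of the infused groups was 0.40 higher on the log2(FPKM + 1) scale (standard error 0.18, 95% interval 0.04 to 0.76), with an unadjusted p of 0.0304 and an adjusted p of 0.431 over 24844 transcripts (limma). An exact permutation test over all divisions of the mice into 25 and 5 gave p = 0.0305. An unadjusted p under 0.05 was reached by 9.72% of all transcripts in this comparison, and by 4.11% on the higher side, so many transcripts had a p like that of Ace. An adjusted p under 0.05 was reached by 0.451%. The unadjusted p was 0.146 without Control mouse 5116, 0.0572 without Control mouse 5155 and 0.0513 without Control mouse 5193, and the difference without mouse 5116 was 0.28.

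Agtr1a had a mean of 10.5 ± 3.24 FPKM in the 25 infused mice (SD), against 12.0 ± 1.99 FPKM in the Control mice. Of the infused mice, 18 were below the Control median, 4 were below the lowest Control mouse and 1 was above the highest. The difference was -0.25 on the log2(FPKM + 1) scale (standard error 0.28, 95% interval -0.83 to 0.33, exact permutation p = 0.393, adjusted p = 0.847 with limma). In bulk tissue, fewer cells that hold a transcript and less of it per cell cannot be told apart.

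**Figure D3:**
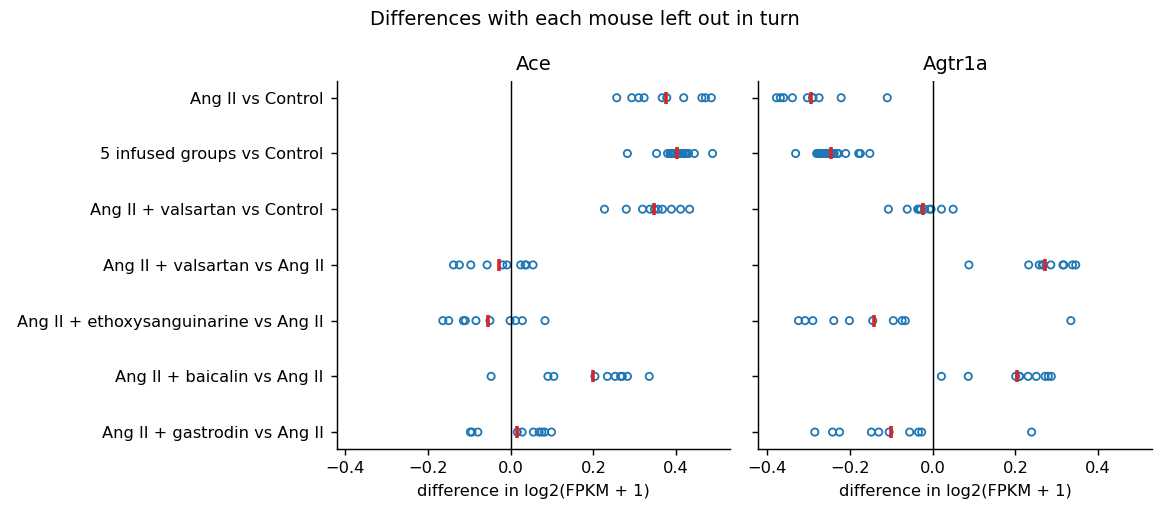
Difference between groups in log2(FPKM + 1) for Ace (left) and Agtr1a (right), with all mice (red bar) and with each mouse left out in turn (open circles). The 3 comparisons of Ace with Control stay above 0, from 0.23 to 0.49, whereas the differences of both transcripts under ethoxysanguinarine and gastrodin fall on both sides of 0.

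Ordered by their means, the groups ran for Ace from Control at 5.67 FPKM through ethoxysanguinarine (7.34), valsartan (7.40), gastrodin (7.73) and Ang II alone (7.73) to baicalin at 9.51 FPKM. For Agtr1a the order ran from gastrodin at 9.74 FPKM through Ang II alone (9.82), ethoxysanguinarine (10.1), baicalin (11.3) and valsartan (11.7) to Control at 12.0 FPKM. This order is of means in FPKM, and 2 pairs of neighbours had the opposite sign on the log2(FPKM + 1) scale, namely gastrodin and Ang II in Ace and Ang II and ethoxysanguinarine in Agtr1a. Control was at one end of both orders, lowest in Ace and highest in Agtr1a. No pair of neighbours in either order passed the test (exact permutation test of log2 values, two-sided, lowest p = 0.151, adjusted p = 0.960 over the 10 pairs). All 10 pairs overlapped. A test for any difference among the 6 groups gave F = 1.36 for Ace (adjusted p = 0.790, limma) and F = 0.56 for Agtr1a (adjusted p = 0.944, limma). In this test 9.49% of transcripts had an unadjusted p under 0.05 and 0.157% an adjusted p under 0.05.

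Most of the spread lay between mice of one group. The groups accounted for 21.6% of the variance of log2(FPKM + 1) in Ace and for 9.90% in Agtr1a, against a median of 17.4% over the 24844 transcripts. The SD within groups was 0.36 for Ace and 0.59 for Agtr1a on this scale. Among transcripts within 0.25 of its mean level, Ace lay at the percentile 53.0 in this SD, in the middle of 1423 transcripts. Agtr1a lay at the percentile 74.1 of 1016, with a median of 0.30 for these transcripts. In FPKM, the SD of Agtr1a was 5.05, 4.22 and 2.71 in the groups of the low hearts 5123, 5120 and 5156. In the 4 mates of each it was 1.77, 1.90 and 1.13. The SD within all groups without these hearts was not computed.

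The ratio of enzyme to receptor transcript in the same heart does not depend on how a library was scaled, apart from the pseudocount. The log2 ratio of Ace to Agtr1a was -0.97 ± 0.33 in the Control group, -0.30 ± 0.72 in the Ang II group and -0.60 ± 0.31 in the valsartan group (SD, n = 5 in each). It was -0.21 ± 1.21 under ethoxysanguinarine, -0.31 ± 0.84 under baicalin and -0.18 ± 0.79 under gastrodin (SD, n = 5 in each). All 5 Control mice and all 5 valsartan mice had more of the receptor transcript than of the enzyme transcript. The Ang II group had 2 mice with more Ace, and the ethoxysanguinarine, baicalin and gastrodin groups had 1 each. The ratio was 0.67 higher in the Ang II group than in the Control group (exact permutation test, two-sided, p = 0.0873, adjusted p = 0.333 over 6 comparisons). It was 0.30 lower under valsartan than in the Ang II group, a difference coded as -0.30 (exact permutation test, p = 0.444, adjusted p = 0.889). Without Ang II mouse 5156 these were 0.42 and -0.05. They were 0.85 and -0.48 without Ang II mouse 5143 (exact permutation p = 0.0317 and 0.206, adjusted p = 0.190 and 0.413). With 5 mice against 5, the smallest p that the exact test can give is 0.00794.

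**Figure D4:**
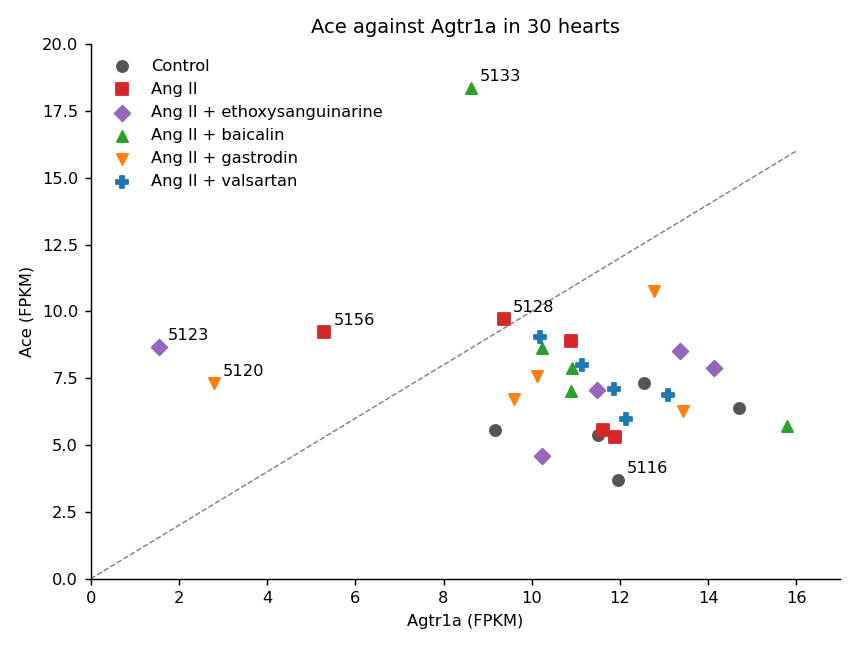
Ace (vertical axis, FPKM) against Agtr1a (horizontal axis, FPKM) in 30 hearts, 1 point per mouse, with a colour and shape for each group. On the dashed line both levels are equal. The plot shows 25 mice below the line and 5 above it, namely 5128 and 5156 (Ang II), 5123 (ethoxysanguinarine), 5133 (baicalin) and 5120 (gastrodin).

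Over the 30 mice, the correlation of Ace with Agtr1a did not pass a test. Pearson's r of log2(FPKM + 1) was -0.24 (permutation test with 100000 resamples, two-sided, p = 0.182) and Spearman's rho was -0.35 (permutation p = 0.0564, adjusted p = 0.113 over both coefficients). Without mice 5133 and 5116, the farthest from the median of Ace, r was -0.25 (permutation p = 0.209). On deviations from the group means, r was -0.24 and rho was -0.24 (permutation p = 0.201 and 0.210). The rho passed the threshold when 1 of 2 mice was left out, at -0.42 without Control mouse 5193 (adjusted permutation p = 0.0452) and at -0.44 without gastrodin mouse 5158 (adjusted permutation p = 0.0361). With the libraries brought to equal sums, r was -0.16 and rho was -0.16 (permutation p = 0.364 and 0.395).

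Ace was set against 2 measures of the library itself. Its r with the sum of values of the mouse was -0.38 (permutation p = 0.0404, adjusted p = 0.162 over 8 coefficients) and its rho was -0.31 (permutation p = 0.0961, adjusted p = 0.198). With the number of transcripts at 1 FPKM or more, r was 0.31 (permutation p = 0.0988, adjusted p = 0.198) and rho was 0.46 (permutation p = 0.0114, adjusted p = 0.0910). Without the 2 mice farthest from the median of each measure, these r were -0.43 and 0.38, and on deviations from the group means they were -0.42 and 0.49. For Agtr1a the r values were -0.10 and -0.04, with rho of -0.26 and 0.01 (adjusted permutation p of 0.271 or more). The mean sum was 619948 ± 31230 in the Control group and 630538 ± 12125 in the Ang II group (SD, n = 5). The mean number of transcripts at 1 FPKM or more was 18755 in the Control group and 18019 in the Ang II group. With all libraries brought to equal sums, Ace was 0.35 higher in the Ang II group than in the Control group on the log2(FPKM + 1) scale (adjusted p = 0.733, limma) and 0.40 higher in the 5 infused groups (adjusted p = 0.562, limma), close to the values of 0.38 and 0.40 without this step.

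The transcripts whose pattern was most like that of Ace over the 30 mice were ENSMUST00000091233 (Pearson's r = 0.81, rho = 0.84) and ENSMUST00000059193 (r = 0.81, rho = 0.83), out of 17567 compared. The former ranged from 1.45 FPKM in Control mouse 5116, the lowest in Ace, to 7.89 FPKM in mouse 5128. The latter ranged from 9.77 FPKM in mouse 5116 to 18.4 FPKM in mouse 5133, the highest in Ace. Their r was 0.76 and 0.78 on deviations from group means, and 0.78 for both without mice 5116 and 5133. In these mice the likeness thus remained within groups and without the extreme hearts. Both transcripts were picked as the highest of 17567 in the same mice, so these values are no independent test of the likeness.

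For Agtr1a the most similar transcripts were ENSMUST00000102677 (r = 0.71, rho = 0.29) and ENSMUST00000159216 (r = 0.70, rho = 0.07). Both were lowest in mouse 5123, at 0.062 and 14.0 FPKM, against medians of 2.88 and 121 FPKM over all mice. In mouse 5120 they were at 0.627 and 16.3 FPKM. Without these 2 mice their r was 0.31 and -0.33. The likeness thus rested on these 2 hearts. In mouse 5156 the former was also low, at 0.797 FPKM, and the latter was at its highest, 206 FPKM. The former was lower still in ethoxysanguinarine mouse 5118, at 0.285 FPKM, although Agtr1a was at 11.5 FPKM in that heart. Low values of this transcript thus did not always go with low Agtr1a. These correlations share the mice and libraries, were picked as the highest of many, and describe these hearts only. No table used here gives the genes of these 4 transcripts.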

How the data were processed

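RNA from hearts, depleted of ribosomal RNA, was sequenced in 5 mice of each of 6 groups, as the labels assign them. The study's methods instead give 6 mice per group for RNA sequencing, and the labels were followed here. The authors deposited 1 value per transcript and mouse, read here as FPKM, with low transcripts already removed. The number of transcripts listed per mouse differed by group. It was 31852 in the Control and Ang II groups and 31452 under ethoxysanguinarine. It was 31548 under baicalin, 31078 under gastrodin and 31111 under valsartan. Each comparison used the transcripts listed in all mice compared, and whether the differing lists bear on the drug comparisons was not tested. The submitters' notes name mm10 and limma and the study's methods name DESeq, while aligner and quantifier remain unstated. Sequencing depth and counts were unknown, so precision rests on 5 mice per group.

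The deposited FPKM values were analysed as log2(FPKM + 1) with limma 3.58.1 (R 4.3.3, mean-variance trend, two-sided, Benjamini-Hochberg adjustment over all transcripts). A transcript needed 1 FPKM in 5 or more of the libraries fitted, which were those of the groups compared. The 5 infused groups together, and any difference among groups, were fitted over all 6 groups. The fit was checked on simulated data. Permutation tests used Python 3.11.15 with numpy 2.4.6. Alternatives were quantile normalization, equal sums, no trend, other filters, all groups in 1 fit, a pseudocount of 0.1, the exact test and each mouse left out. A ratio without pseudocount, a correlation without mice 5123 and 5120 and the check for distant mice on the log2 scale were chosen after seeing the data.

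The members, lists and tests were chosen with earlier results of these data known. Named transcripts were both members, 22 renin-angiotensin genes and, per member, the 2 transcripts of most similar pattern (1 FPKM or more in 15 libraries). The reference table holds 0 Ensembl identifiers, so the names Ace and Agtr1a, which came with the identifiers, were not checked. The other renin-angiotensin genes and 25 cell type markers were not analysed here, nor was the tissue checked against markers.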

Additional observations from a re-analysis of the deposited data

Results flagged for a closer look

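In 18 checks within groups of 5 mice, of Ace and Agtr1a in FPKM and of their log2 ratio, 2 found a mouse far from the rest of its group. Chance alone gives about 1 in 20. Baicalin mouse 5133 had 18.3 FPKM of Ace, against 5.70 to 8.64 FPKM in its mates. Ethoxysanguinarine mouse 5123 had a log2 ratio of Ace to Agtr1a of 1.92, against -1.01 to -0.59 in its mates. The scale decided which single transcripts were found. On the log2(FPKM + 1) scale of the tests, a choice made after seeing the data, 2 of 12 checks found a mouse, both in Agtr1a. These were mouse 5123, at 1.35, and gastrodin mouse 5120, at 1.93, whose gap to the nearest mate was 0.833 and 0.768 of the range of its group, above the limit of 0.71. In FPKM these shares were 0.691 and 0.639. For Ace in mouse 5133 the share was 0.767 in FPKM and 0.657 on the log2 scale. Agtr1a of mouse 5156 was below the limit on both scales.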

How the results depend on the processing

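No difference in Ace or Agtr1a passed an adjusted p of 0.05 under any alternative run (limma or the exact test), and the differences of Ace from Control kept their sign in all. Signs did not hold for 10 of 23 results, with reported values from -0.14 to 0.20. With each mouse left out, Ace against Ang II ranged from -0.14 to 0.054 for valsartan, -0.16 to 0.083 for ethoxysanguinarine, -0.048 to 0.33 for baicalin and -0.098 to 0.098 for gastrodin. After quantile normalization the valsartan value was 4.4e-05. Agtr1a ranged from -0.32 to 0.33 for ethoxysanguinarine and from -0.29 to 0.24 for gastrodin against Ang II, and from -0.11 to 0.049 for valsartan against Control. The log2 ratio against Ang II ranged from -0.45 to 0.34 for ethoxysanguinarine, -0.33 to 0.25 for baicalin and -0.21 to 0.37 for gastrodin. Where the sign turned on leaving out a mouse, this followed from the value of that heart by construction, since each value is a difference of group means. Why the sign turned after quantile normalization was not tested. The correlation of Ace and Agtr1a ranged from -0.34, without mice 5123 and 5120, to -0.16, and only its rho passed the threshold, without mouse 5193 or 5158. No paired analysis was possible because the mouse numbers are not shared between groups. Depth is unknown, so its effect on either transcript could not be assessed.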
